A study of Mus musculus with 12 samples.

Results

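ZFAT binding was compared between thymocytes of Zfatf/f mice, called floxed here, and thymocytes of Zfatf/f-LckCre mice, called Lck-Cre. The regions are every peak of the 2 deposited ZFAT lists, 1719 floxed and 108 Lck-Cre peaks in mm9, which together are 1827 of the 21883 peaks in the 7 lists of the series. A peak counted as shared when it overlapped a peak of the other list by at least 1 bp. Both genotypes carry the floxed Zfat allele, and the Lck-Cre line carries in addition a Cre transgene named for Lck, a T lineage kinase gene. Animals were 4 to 5 weeks old, and chromatin came from thymus cells fixed with 1% formaldehyde and cut with 375 units of micrococcal nuclease before sonication. Each genotype gave 1 ZFAT ChIP library, so there is no replicate error and no test between genotypes. The labels do not say how many animals were pooled, which Lck promoter drives Cre, which exons are floxed, or how much ZFAT remained in the Lck-Cre thymocytes. Lists from C57BL/6 thymocytes of the same age, called B6 (ZFAT over input and over IgG), and H3K9me3 and H3K9ac/K27ac lists from the Zfatf/f line (acetylation also from Zfatf/f-LckCre) are set beside the peaks. The thymus also holds cells outside the T lineage, in which an Lck-driven Cre would leave the allele intact.

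ZFAT is a nuclear protein with zinc fingers, domains that contact DNA bases, and an AT-hook, a short motif that binds AT-rich DNA. It is known for its role in the survival and development of T lineage cells. ChIP with an antibody recovers the DNA fixed near its target, and the same antibody in cells meant to lack the target shows which regions are recovered there too. No gene is named below, because no mm9 gene annotation was used, and no sequence is printed for the same reason.

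Of the floxed peaks, 31 were shared (1.80% of 1719) and 1688 were not. Of the Lck-Cre peaks, 35 were shared (32.4% of 108) and 73 were not. The shares depended on list length and score. They were 4.26% and 76.2% among peaks with P scores (the negative log10 of the p of the caller) of 10 or more, and the floxed share was 27.8% when its 108 strongest peaks were taken. The shared regions lay on 13 chromosomes. Chromosome 2, with 152 floxed peaks, held 5 of the shared regions. Chromosomes 5, 9, 11 and 17, with 130, 110, 114 and 85 floxed peaks, held 3 each. Chromosome 8, with 94 floxed peaks, had no Lck-Cre peak at all. Chromosome X, with 56 floxed and 7 Lck-Cre peaks, had no shared peak. The division between shared and unique was wide. The smallest overlap among the 35 pairs was 144 bp, at chromosome 14, 52478139 to 52478304, and 155 bp was the next. On the other side, the closest floxed-only peak was 303 bp from an Lck-Cre peak, and the closest Lck-Cre-only peak was 4001 bp from a floxed one.

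For each peak the caller gave a fold, the ratio of ChIP to local control background, and the P score. Both together fix the pileup, the number of ChIP fragments over the summit, and the background, the control level there scaled to the ChIP library. P scores stop at 323.306. For peaks at that ceiling the pileup is known only from below, as a minimum. Inferred library sizes were about 1510000 fragments for floxed and 1330000 for Lck-Cre. Intervals given for pileups are exact Poisson 95% intervals, and those for shares are exact Clopper-Pearson 95% intervals. Both cover counting error only, and since duplicate reads cannot be told apart the fragments may not be independent molecules.

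The 31 shared floxed peaks formed 2 kinds of locus. At 26 of them the background was not known to be high, and the fold was lower in Lck-Cre at all 26. At the other 5 the floxed background was 20 or more scaled fragments, and the fold was lower in Lck-Cre at 4. Across the 26, the floxed fold ranged from 4.98 to 355 with a median of 148, and the Lck-Cre fold from 2.60 to 79.2 with a median of 10.6. The ratio of the folds ran from 1.38 to 25.0. Loci with a high floxed fold tended to have a high Lck-Cre fold (Spearman's rho of 0.73 over the 26 loci, which share the same libraries, given as a description).

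**Figure D1:**
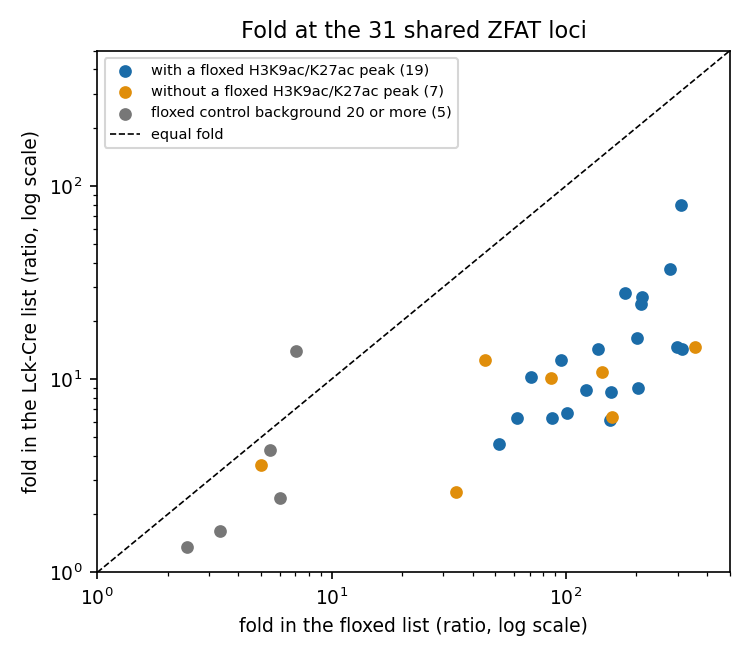
Fold in the Lck-Cre list (y axis, ratio, log scale) against fold in the floxed list (x axis, ratio, log scale) at the 31 shared ZFAT loci; each point is 1 floxed peak with its strongest Lck-Cre peak, and the dashed line marks equal folds. All 26 blue and orange points lie under the line, and 1 of the 5 grey high-background points lies above it.

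The 10 strongest shared loci were at the P score ceiling in floxed thymocytes. The first, at chromosome 17, 25252349 to 25253037, had at least 397 floxed fragments over its summit and 35 Lck-Cre fragments (24.4 to 48.7). Scaled to library size, the Lck-Cre pileup was at most 0.0998 of the floxed one, the lowest such limit among the shared loci. At chromosome 7, 20147001 to 20147920, at least 349 floxed fragments stood against 111 in Lck-Cre (91.3 to 134). These 2 loci had similar floxed folds, 355 and 312, and similar Lck-Cre folds, 14.7 and 14.4. Their Lck-Cre backgrounds were 1.45 and 6.78, so the same fold stood on different numbers of fragments.

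The locus at chromosome 7, 134919978 to 134921457, and the one at chromosome 9, 99468648 to 99469455, were at the ceiling in both lists. Their pileups were at least 348 and 311 in floxed and at least 188 and 265 in Lck-Cre, so no ratio of pileups can be given. They also had the 2 highest Lck-Cre folds, 79.2 and 37.2.

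On chromosome 2, peaks at 153458164 to 153458672 and at 153474730 to 153476162 were each other's nearest floxed neighbours, 16058 bp apart. The first had at least 236 floxed fragments and 193 in Lck-Cre (167 to 222). Scaled to library size, the Lck-Cre interval of the first was 189 to 252 and reached the floxed bound. The second had at least 333 floxed fragments and 113 in Lck-Cre (93.1 to 136). The order of the pair was thus reversed between lists: by fold the second was higher in floxed (298 against 211) and the first was higher in Lck-Cre (26.6 against 14.6).

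At chromosome 11, 99091356 to 99092418, the pileup was at least 233 in floxed and 178 in Lck-Cre (153 to 206). At chromosome 12, 114238086 to 114238993, it was at least 200 in floxed and also 178 in Lck-Cre (153 to 206). The interval of this last locus reaches the floxed bound, so the pileups there cannot be said to differ. Scaled to library size, the interval of the chromosome 11 locus reaches its bound as well (173 to 233 against 233). Chromosome 10, 88193951 to 88194637, had at least 228 floxed fragments and 95 in Lck-Cre (76.9 to 116). Chromosome 19, 56622775 to 56623574, had at least 226 and 94 (76.0 to 115). These 4 loci thus held 94 to 178 Lck-Cre fragments, while the first-ranked locus, on chromosome 17, held 35.

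**Figure D2:**
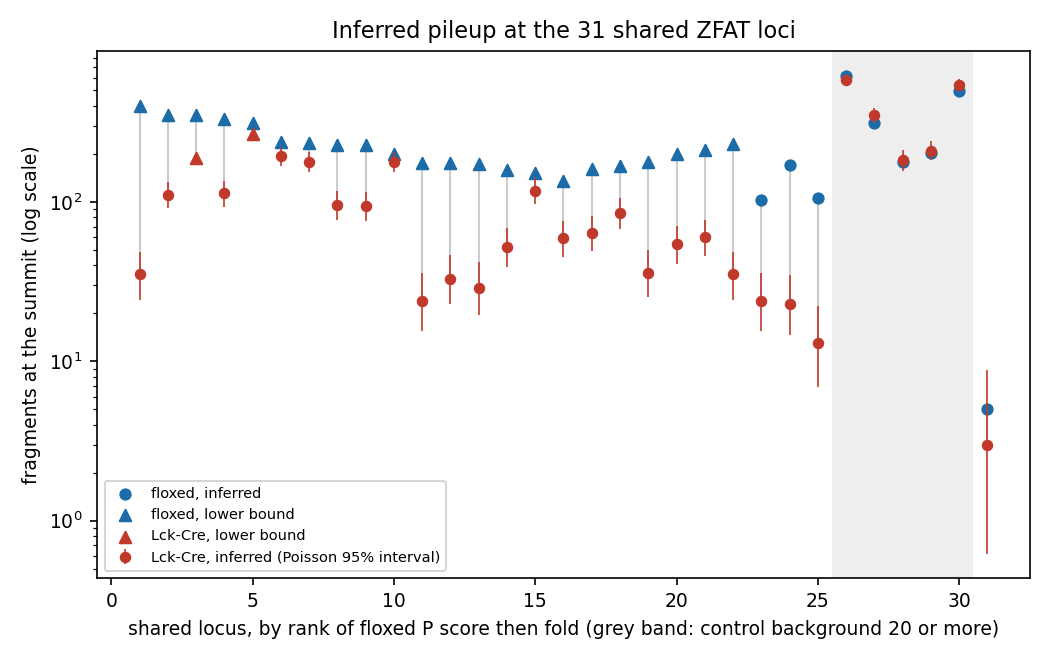
Inferred fragments at the summit (y axis, log scale) in the floxed (blue) and Lck-Cre (red) libraries at the 31 shared loci, ordered by floxed P score and then fold (x axis, rank); triangles are lower bounds at the P score ceiling, and red bars are Poisson 95% intervals. The 5 loci in the grey band, with a control background of 20 or more, have pileups of like size in both libraries, while the red value lies under the blue value or bound at 24 others, and at ranks 3 and 5 both are lower bounds that give no order.

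The next 12 shared loci, ranks 11 to 22, were also at the floxed ceiling, with floxed folds of 51.6 to 158 and Lck-Cre folds of 4.63 to 14.3. Lck-Cre fragments were fewest at chromosome 2, 90894153 to 90894458, with 24 (15.4 to 35.7) against at least 176 in floxed. They were most numerous at chromosome 6, 113256673 to 113257747, with 117 (96.8 to 140) against at least 152. Scaled to library size, that interval was 110 to 159 and reached the floxed bound. The largest ratio of folds in the whole set, 25.0, was at chromosome 9, 122930191 to 122930887, with at least 172 floxed and 29 Lck-Cre fragments (19.4 to 41.6). The rest of the 12 had 33 to 85 Lck-Cre fragments.

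Over the 24 loci of the first kind with a known Lck-Cre pileup, that pileup ranged from 3 to 193 with a median of 56.5. Unscaled, it was under the floxed pileup or bound at all 24, and at 22 its upper Poisson limit was under it as well. Scaled to library size, it was under at 23 with its upper limit under at 19, and 18 of the 24 had an Lck-Cre pileup under 0.5 of the floxed pileup or bound. The 3 shared loci with P scores from 50 up to the ceiling, and no high background, allow a ratio and not only a limit. At chromosome 2, 91550843 to 91551181, 103 floxed fragments (84.1 to 125) stood against 24 in Lck-Cre (15.4 to 35.7), a scaled ratio of 0.264. At chromosome 16, 57606587 to 57607133, 171 (146 to 199) stood against 23 (14.6 to 34.5), a ratio of 0.152. At chromosome 2, 57034209 to 57034410, 106 (86.8 to 128) stood against 13 (6.92 to 22.2), a ratio of 0.139. In each of these the intervals of the pair do not overlap.

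At the high-background loci the pileups of the libraries were of like size. At chromosome 16, 11144119 to 11144292, the pileup was 314 in floxed (280 to 351) and 348 in Lck-Cre (312 to 387). At chromosome 5, 147072580 to 147072922, it was 202 (175 to 232) and 209 (182 to 239). At chromosome 9, 3019100 to 3019446, it was 178 (153 to 206) and 182 (157 to 210). These unscaled intervals overlap in each of the 3 pairs. On chromosome 17, the pileup was 617 in floxed and 578 in Lck-Cre at 39980639 to 39983317, and 495 and 538 at 39985147 to 39985746. After scaling to library size, Lck-Cre pileups were 1.06 to 1.25 times the floxed ones at all 5, against limits and ratios of 0.0998 to 1.01 at the other 24. On that scale 2 of the 5 were higher in Lck-Cre with intervals that do not overlap. The Lck-Cre interval was 354 to 438 at the chromosome 16 locus, against 280 to 351 in floxed, and 559 to 663 at 39985147 on chromosome 17, against 452 to 541. The library sizes behind the scaling are inferred, and their error is not in these intervals.

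The control level at these 5 loci differed between the lists. On chromosome 5 the background was 32.6 in floxed and 85.8 in Lck-Cre, and on chromosome 16 it was 56.4 and 79.9. At the chromosome 17 pair it was 184 and 351, and 205 and 397. On chromosome 9 the order was reversed, 24.5 in floxed and 12.1 in Lck-Cre. That locus was the 1 shared region with a higher fold in Lck-Cre, 14.0 against 7.03. All 5 high-background loci carried an H3K9me3 peak of floxed thymocytes, a mark of silenced chromatin, and none carried a floxed H3K9ac/K27ac peak, a mark of active promoters and enhancers. None of the other 26 had an H3K9me3 peak (0 of 26, upper limit 13.2%). Over all floxed peaks the share was 4.48% (77 of 1719), and strong floxed-only peaks without high background had none either (0 of 18). No high-background shared locus overlapped a B6 ZFAT peak called over IgG, while 25 of the 26 did (5.29% of all floxed peaks). Over input, all the high-background shared loci but the one on chromosome 5 overlapped a B6 ZFAT peak, as did 25 of the 26 (8.26% of all floxed peaks).

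The weakest shared locus stood apart from the rest. At chromosome 14, 52478139 to 52478304, the floxed peak had 5 fragments (1.62 to 11.7), a fold of 4.98 and a P score of 7.08. Its Lck-Cre peak had 3 fragments (0.619 to 8.77), which is the lowest pileup in that list. No B6, H3K9ac/K27ac or H3K9me3 list had a peak there. The other 30 shared loci all had floxed P scores of 50 or more, and none of the 630 floxed peaks with scores from 10 to 50 was shared.

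Lck-Cre peaks were narrower than the floxed peaks they overlapped and lay inside them. The Lck-Cre peak was the narrower at 30 of 31 loci, and 33 of the 35 Lck-Cre peaks lay wholly within the floxed peak. At the 26 loci without high background the floxed median width was 749 bp and the Lck-Cre median 389 bp. The widest shared floxed peak of these, 1548 bp at chromosome 11, 84683044 to 84684591, had an Lck-Cre peak of 472 bp. At chromosome 15, 3945380 to 3945839, the widths were 460 and 157 bp. The exception was the chromosome 9 high-background locus, with 347 bp in floxed and 351 bp in Lck-Cre. A caller ends a peak where the signal falls under its threshold, so width also moves with the pileup.

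Summits changed little. The nearest Lck-Cre summit lay at a median of 12 bp from the floxed summit, with quartiles of 5 and 24 bp. It was within 30 bp at 26 of the 31 loci and at the same base at 2. One of these was chromosome 11, 84683044 to 84684591, where the widths differed 3.28 times. The 3 loci with shifts over 50 bp had few Lck-Cre fragments. The shift was 231 bp at chromosome 16, 57606587 to 57607133 (23 fragments), 98 bp at chromosome 9, 122930191 to 122930887 (29 fragments), and 57 bp at the weak chromosome 14 locus (3 fragments). Other loci with few fragments had small shifts. On chromosome 2 these were 57034209 (13 fragments, 7 bp), 91550843 (24 fragments, 17 bp) and 90894153 (24 fragments, 27 bp).

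**Figure D3:**
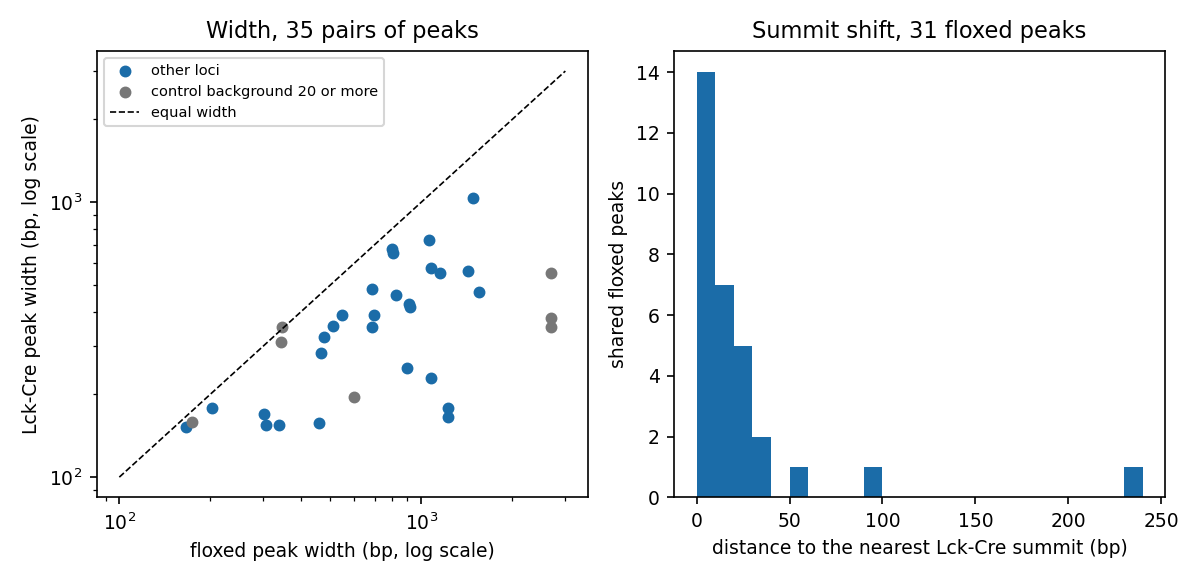
Left, width of the Lck-Cre peak against the width of the floxed peak it overlaps (both in bp, log scales) for the 35 overlapping pairs, with a dashed line at equal width; right, number of the 31 shared floxed peaks by distance from their summit to the nearest Lck-Cre summit (bp, 10 bp bins). All pairs but the high-background one on chromosome 9 lie under the line, and 26 of 31 shifts are 30 bp or less.

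At 3 loci a single floxed peak held several Lck-Cre peaks. At chromosome 6, 113256673 to 113257747, a floxed peak of 1075 bp held Lck-Cre peaks at 113256737 to 113256966 and 113257123 to 113257698. The second of these had its summit 25 bp from the floxed summit, and the first 386 bp away. At chromosome 5, 130006789 to 130008017, Lck-Cre peaks of 178 and 166 bp had summits 9 and 526 bp from the floxed summit. At the high-background chromosome 17 locus, 39980639 to 39983317, a floxed peak of 2679 bp held 3.

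The floxed-only peaks were mostly small. Their median width was 172 bp, their median fold 5.35 and their median pileup 9 fragments, and 970 of the 1688 had 10 fragments or fewer. The strongest was at the P score ceiling, at chromosome 8, 59029425 to 59029716, with a fold of 107 and at least 150 fragments. Its neighbour at 59029928 to 59030295, 212 bp away, had a fold of 22.8 and 115 fragments (94.9 to 138). Neither had an Lck-Cre peak, and both had B6 ZFAT peaks called against input and against IgG. Next came chromosome 6, 54987748 to 54988434, with 186 fragments (160 to 215), and chromosome 11, 76220676 to 76220999, with 200 (173 to 230). After these came chromosome 1, 133807105 to 133807803, with 211 fragments (183 to 241), and chromosome 7, 36340067 to 36340703, with 169 (144 to 196). These 4 pileups, 169 to 211, stand beside 103 to 171 at the 3 shared loci without high background whose scores lay from 50 up to the ceiling, and beside lower bounds of 136 to 397 at the 22 shared loci at the ceiling. By score, 22 of the 23 floxed peaks at the ceiling were shared (95.7%) and 8 of the 28 from 50 up to it (28.6%).

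A peak that was not called can still hold fragments. At the background level of most of the Lck-Cre genome, 0.108, the caller's threshold is passed by 3 fragments, but at a background of 5 it takes 17. There were 17 floxed-only peaks with P scores from 50 up to the ceiling and no high background. Their Lck-Cre background is not known. If it stood to the genome-wide level as in floxed, the lowest number of Lck-Cre fragments that would have been called is 3 to 20. Scaled to library size that is 7.30% to 22.6% of the floxed pileup, with a median of 14.4%. That assumption did not hold at the 3 shared loci with scores from 50 up to the ceiling, no high background and both backgrounds known, so these limits are approximate. The background there was 1.69 times the genome-wide level in floxed and 13.4 times in Lck-Cre at 91550843 on chromosome 2, 11.2 and 1 times at 57034209 on chromosome 2, and 33.7 and 76.1 times at 57606587 on chromosome 16. These 3 shared loci had ratios of 0.139 to 0.264, in or just above the range of these limits. These 3 were called in Lck-Cre, so their ratios had to pass the limit at their own background. The number of Lck-Cre fragments at the uncalled peaks is not known. Whether the threshold divides shared from floxed-only peaks was not tested.

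Strong floxed-only and shared peaks resembled each other in the other lists. Of the 18 floxed-only peaks with P scores of 50 or more and no high background, 18 overlapped a ZFAT peak of B6 thymocytes called over input and 11 (61.1%, 35.7% to 82.7%) had a floxed H3K9ac/K27ac peak. Of the 26 shared loci, 25 overlapped such a B6 peak and 19 (73.1%, 52.2% to 88.4%) had acetylation. The intervals overlap. Over all 1688 floxed-only peaks the shares were 6.69% (5.55% to 7.99%) for the B6 list over input and 25.1% (23.1% to 27.3%) for acetylation. Lck-Cre H3K9ac/K27ac peaks lay at 3 of the 26 shared loci (11.5%, 2.45% to 30.2%). They lay at 2 of the 18 strong floxed-only peaks (11.1%) and at 83 of all 1688 floxed-only peaks (4.92%).

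Among the shared loci without high background, the 19 with acetylation had a higher median of Lck-Cre fragments than the 7 without. Where known or bounded, the Lck-Cre pileup ran from 29 to 265 with a median of 94 at the 19, and from 3 to 52 with a median of 24 at the 7. Lck-Cre backgrounds were higher at the acetylated loci too, from 2.95 to 9.69 against 0.108 to 8.24, and so were floxed widths, with medians of 899 and 306 bp. Floxed pileups or bounds were also higher by median at the acetylated loci, 212 (136 to 349) against 159 (5 to 397). Scaled to library size, the ratio of Lck-Cre pileup to floxed pileup or bound had a median of 0.453 (0.172 to 1.01) at 17 acetylated loci. These are the acetylated loci with a known Lck-Cre pileup. At the 7 without acetylation the median was 0.154 (0.0998 to 0.679). Floxed pileups were only bounds at all 17 and at some of the 7, so the ratios there are upper limits. Whether the share kept differed can therefore not be told. The part of background, width or floxed pileup in the difference in Lck-Cre fragments was not tested.

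Shared and strong floxed-only peaks often had other floxed peaks close by. Within 10 kb of another floxed peak lay 16 of the 31 shared peaks (51.6%, 33.1% to 69.8%), against 96 of the 1688 floxed-only peaks (5.69%). Of the 21 floxed-only peaks with P scores of 50 or more it was 9 (42.9%, 21.8% to 66.0%), an interval that overlaps that of the shared peaks. Chained at gaps of at most 10 kb, the floxed list gave 52 clusters holding 112 peaks, and 13 of the clusters held a shared peak. The largest had 4 peaks, and there were 4 of that size, each with at least 1 shared peak. In the cluster at chromosome 7, 20143242 to 20158911, the folds ran from 8.93 to 312 and 1 of the 4 peaks was shared. In the cluster at chromosome 7, 134910976 to 134921457, they ran from 3.73 to 311 and again 1 was shared. In the cluster at chromosome 6, 113256673 to 113269320, they ran from 7.10 to 136 and 1 was shared. The fourth, at chromosome 17, 39980014 to 39985746, was made up of 4 high-background peaks with folds of 2.41 to 3.35, of which 2 were shared.

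The largest Lck-Cre cluster overlapped that region of chromosome 17, with 4 shared peaks from 39980932 to 39985670 with folds of 1.35 to 1.64. In the other 3 floxed clusters the side peaks had lower pileups than the shared one. On chromosome 6 they included 113259189 to 113259472, with 73 fragments (57.2 to 91.8). At the first chromosome 7 cluster they included 20150701 to 20151026, with 39 (27.7 to 53.3). At the second they had 10, 23 and 35, with the last at 134913288 to 134913729. In all, 16 floxed-only peaks lay within 10 kb of a shared one, with a median pileup of 24, and 2 of them had a high background. The closest comparison was on chromosome 2, where 2 floxed peaks of nearly equal pileup lay 220 bp apart. The peak at 91550843 to 91551181 had 103 floxed fragments and was called in Lck-Cre with 24. The peak at 91550324 to 91550623 had 109 floxed fragments (89.5 to 131) and was not called. At the Lck-Cre background of the first, 1.45, a peak needs 9 fragments. Neither carried an H3K9ac/K27ac peak. By contrast both members of the pair at chromosome 19, 56622315 to 56622615 and 56622775 to 56623574, were called, with 52 and 94 Lck-Cre fragments. The pair on chromosome 11 at 84683044 to 84684591 and 84693207 to 84694031 was also called in full, with 59 and 85.

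The 73 Lck-Cre-only peaks were small and scattered. Their median width was 163 bp and their median pileup 4 fragments, and 51 of them rested on 3 or 4 fragments. At 58 the background was the genome-wide level of the list. Their median distance to the nearest floxed peak was 435891 bp, and 2 of 73 were within 10 kb of one. For floxed-only peaks the median distance to the nearest other floxed peak was 333039 bp, and 477506 bp for those with 3 or 4 fragments. None overlapped a floxed H3K9ac/K27ac peak (0 of 73, upper limit 4.93%), 2 overlapped an Lck-Cre one, and 2 overlapped a B6 peak called against input. Of the 51 with 3 or 4 fragments, none had a floxed acetylation peak or a B6 peak called against input (0 of 51 each, upper limit 6.98%). Floxed-only peaks of that size were similar: of 313, 1 had a floxed acetylation peak and 3 a B6 peak called against input.

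Of the 73, 10 had P scores of 10 or more and 5 had 20 or more. The first 4 all stood on a high background and were repeat-like in that ChIP and control were high together, although no repeat annotation was used. They were at chromosome 2, 98507244 to 98507454 (background 1413, fold 1.96) and 98502759 to 98502927 (495, 2.17), at chromosome 9, 3023447 to 3023604 (48.9, 3.87), and at chromosome 9, 35112843 to 35113089 (242, 1.85). The last of these had 448 fragments (407 to 491). Of the 4, the chromosome 2 pair and the peak at 35112843 also carried an H3K9me3 peak. The peak at 98507244 overlapped an Lck-Cre H3K9ac/K27ac peak and B6 ZFAT peaks called over input and over IgG as well. The peak at 98502759 also overlapped a B6 peak called over IgG. The peak at 3023447 lay 4001 bp from the shared high-background peak at 3019100.

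The strongest Lck-Cre-only peak without a high background was at chromosome 12, 3109963 to 3110120, with 57 fragments (43.2 to 73.9) at a background of 8.72. It overlapped no peak of any other list. The next 5 all stood at the genome-wide background. Those at chromosome 14, 105114955 to 105115111, and chromosome X, 42364823 to 42365001, had 8 fragments each (3.45 to 15.8). Those at chromosome 14, 49508720 to 49508912, chromosome 2, 7373714 to 7373894, and chromosome X, 123312289 to 123312454, had 7 each (2.81 to 14.4). None of these 5 overlapped a peak of any other list. Over the whole Lck-Cre list, 13 of the 16 peaks with P scores of 50 or more were shared, and the other 3 were the first 3 high-background regions above.

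**Figure D4:**
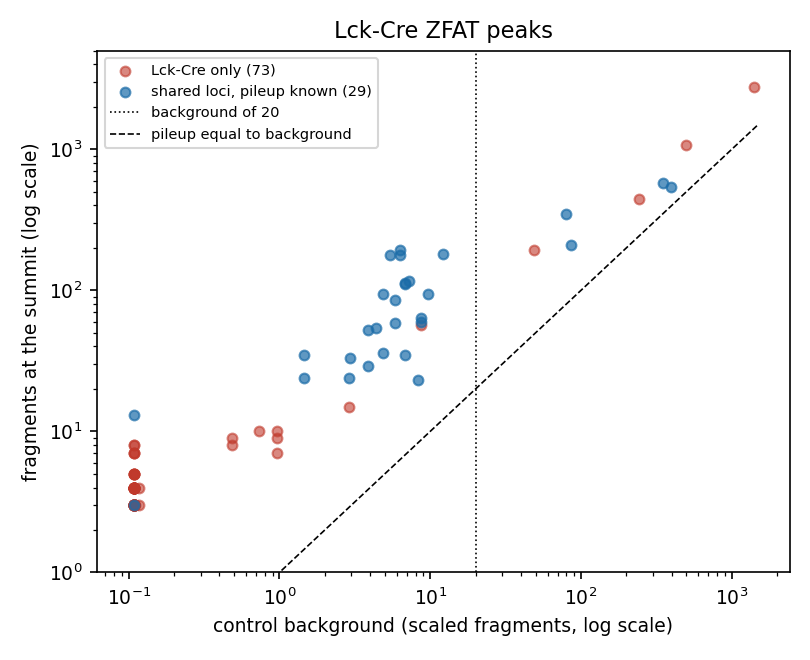
Fragments at the summit (y axis, log scale) against control background (x axis, scaled fragments, log scale) for the 73 Lck-Cre-only peaks (red) and the 29 shared loci with a known Lck-Cre pileup (blue); the dotted line marks a background of 20 and the dashed line a pileup equal to the background. Most red points sit at the genome-wide background of 0.108 with 3 to 8 fragments, 4 red points lie above 20, and most blue points lie between these levels.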

How the data were processed

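The deposited lists hold peaks per ChIP library, made by the authors with MACS according to the lists' names. Per the file headers, the build was mm9, the fragment length 150 bp and the p threshold 1e-05. Trimmomatic 0.22, SAMtools 0.1.18 and CASAVA 1.8.1 are listed in the submitters' processing notes. The aligner, the MACS version and the control library were not given in the sources used here. The deposited P score and Q score are −log10 values per peak, and the deposited fold is a ratio of ChIP to local background. Positions were taken as 1-based and closed, and Q scores were not used.

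Pileup k and background b were solved from fold = (k + 1)/(b + 1) and the Poisson tail above k, matching P scores within 0.0001, with Python 3.11.15 and scipy 1.17.1. This gave values for all 1696 floxed and 106 Lck-Cre peaks under the ceiling, with a single solution each. Tested on simulated data, the procedure recovered 289 of 289 pileups. The lowest background of a list, an effective genome of 1870000000 bp and the narrowest peak as fragment length gave the library size. The narrowest peak was 150 bp in floxed and 152 bp in Lck-Cre, although both headers give 150. Background of 20 or more was called high. Other overlap rules, score thresholds, background limits and cluster gaps were tried.

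Loci were named by rank of P score, then fold: the 10 strongest shared, 5 floxed-only and 10 Lck-Cre-only peaks, shared loci under a P score of 50, and the largest clusters. Other named loci, the comparison by acetylation and the detection limits were chosen after their values were seen. The members and lists were chosen with earlier results of these data known. Gene lists could not be counted without mm9 gene positions.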

Additional observations from a re-analysis of the deposited data

How the results depend on the processing

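A stricter overlap, set as a share of the shorter peak, summits within 100 bp, gaps of up to 500 bp and leaving out high-background peaks kept both shares within their counting intervals. The share of floxed peaks overlapped, 1.80%, was 4.26% among peaks of both lists with P scores from 10 up and 27.8% with lists of equal length. The share of Lck-Cre peaks shared, 32.4%, was 76.2% at P scores of 10 or more. The share of Lck-Cre peaks at high background, 9.26%, was 23.8% at P scores of 10 or more. These rest on fewer peaks by construction. The 52 floxed clusters became 18 with gaps of at most 1000 bp, 117 with 50000 bp and 27 at P scores of 10 or more. The median summit shift was 12 bp under all 3 of its alternatives, and the median floxed width was 172 to 182 bp. No paired analysis was possible because each ChIP group had 1 library. Depth limits the lists: 122 floxed and 32 Lck-Cre peaks rest on 3 fragments. Whether any difference comes from genotype or from the single libraries cannot be told apart.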

Other observations

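Control fragments were counted at the shared ZFAT loci. Every background solved in the floxed list (1118 above the genome-wide level) was a whole number of control fragments, within 0.01, in a window of 1 fragment, 1000 bp or 10000 bp, with each fragment worth 0.680. In the Lck-Cre list the same held for all 46, with each fragment worth 0.485, if the fragment length was 152 bp; at 150 bp 7 of the 46 were not whole. An even spread would give 0.224 Lck-Cre control fragments per window. At 20 of the 24 shared loci without high background and with a known Lck-Cre pileup, the fragment window held 3 to 20 control fragments, with a median of 12.5. At 22 of the 24 the background was 13.4 to 89.5 times the genome-wide level, and at the other 2, on chromosome 2, 57034209 to 57034410, and chromosome 14, 52478139 to 52478304, it was at that level. Strong floxed-only peaks (P score of 50 or more, no high background) had 2 to 11 floxed control fragments in the fragment window at 14 of 17. An even spread would give 0.178 floxed control fragments per window. These floxed counts and the Lck-Cre counts above come from the controls of different lists, so they are not compared. Since the fold divides by the control level, it is lower where that level is raised than the same pileup would give elsewhere. At the highest Lck-Cre background, at chromosome 2, 98507244 to 98507454, the window held 2916 control fragments and 2768 ChIP fragments.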
